A study of Mus musculus with 24 samples.

Results

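Lens epithelia of LEGSKO mice treated with buthionine sulfoximine (BSO) were compared with lens epithelia of LEGSKO mice that did not receive it. The comparison holds 8 of the 24 RNA-seq libraries of the series, 4 per group, and its members were chosen by their sample titles. Both groups carry the LEGSKO allele, so by their labels the groups differ by BSO alone. All libraries were made from total RNA of C57BL/6 mice, and the labels give no age, sex, dose, route, vehicle or batch. They do not tie the 4 libraries of a group to separate animals, so p-values measure the spread between these libraries, which may be technical. The other groups of the series were WT epithelia and the cortical fiber cells of the same 3 conditions, again 4 libraries each.

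Glutathione is the main small-molecule thiol of the lens and keeps crystallins and membrane proteins reduced. Its first and rate-limiting step is catalysed by glutamate-cysteine ligase, whose catalytic subunit is Gclc. LEGSKO is a lens-restricted Gclc knockout, and BSO inhibits the same ligase. The design text calls LEGSKO lenses mildly, and BSO-treated LEGSKO lenses severely, short of glutathione. The lens epithelium is a single layer of cells on the anterior surface that divides, transports ions and nutrients, and feeds new fiber cells at its equator.

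Without BSO the LEGSKO epithelia held 20.2 to 25.1 M (mega) counts per library, and with BSO 19.3 to 33.9 M. Lens epithelial markers were present in all 8 libraries. Pax6, a master regulator of eye development, stood at 627 to 706 counts per M (CPM) in LEGSKO and 614 to 689.6 CPM in LEGSKO+BSO, and the adhesion protein gene Cdh1 at 441 to 505 and 429 to 539.7 CPM. Crystallins took 10.6% ± 2.53 and 9.62% ± 2.58 of counts (SD, n = 4). The corneal keratin gene Krt12 was at most 0.793 CPM and the stromal gene Lum at most 0.0503 CPM in these 8 libraries.

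Gclc (Entrez 14629, GRCm38 chromosome 9: 77754535 to 77794489) is the gene targeted in LEGSKO mice. In libraries 1 to 4 its CPM was 70.5, 57.7, 60.0 and 44.6 in LEGSKO libraries and 108, 81.1, 89.6 and 63.6 in LEGSKO+BSO epithelia. The groups overlapped: LEGSKO+BSO library 4 lay below LEGSKO library 1. The log2 difference was 0.56 ± 0.16 SE (edgeR adjusted p = 0.105), so Gclc did not pass the threshold of 0.05. DESeq2 put it past the threshold (adjusted p = 0.0134). A count over the whole gene also holds exons outside a deleted part, so it does not check the knockout.

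Few genes passed the test between LEGSKO+BSO and LEGSKO epithelia, and most of them differed by little. Of 15089 genes tested, 109 (0.722%) passed an adjusted p of 0.05 in the quasi-likelihood test of edgeR, adjusted by Benjamini and Hochberg's method. Of these, 49 (0.325%) were higher and 60 (0.398%) lower in LEGSKO+BSO. The median fold was 1.37 among the higher and 1.31 among the lower genes, and 7 rose and 2 fell by at least 2-fold. In 107 of the 109 the groups did not overlap in CPM. Over all genes tested, non-overlapping groups were seen for 813 higher (5.39%) and 1048 lower (6.95%) genes, and an unadjusted p below 0.05 for 1299 higher (8.61%) and 1608 lower (10.7%) genes. The 4 genes with the highest folds encode a protease inhibitor, a matrix protein and a pair of pigment cell proteins. The lower genes spread over many functions. DESeq2 called more genes, 679 of 21845 fitted (321 higher, 358 lower). Its calls within the lists below are counted only among genes that passed edgeR's filter on low counts. The 21845 include genes that failed that filter, so the share over all genes and those of the lists have unlike bases. In bulk RNA a change in the number of cells of a type and a change in RNA per cell cannot be told apart.

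The count of called genes depended on single libraries. Without LEGSKO+BSO epithelia 2 it was 442, without LEGSKO epithelia 1 it was 50, without LEGSKO epithelia 3 it was 19, and without LEGSKO+BSO epithelia 4 it was 15. Without LEGSKO epithelia 2 or 4, or LEGSKO+BSO epithelia 1 or 3, edgeR called 0 genes, while 2821, 2293, 2361 and 2482 genes had an unadjusted p below 0.05. No gene kept its call in all 8 of these fits. Fold changes moved less, and those that moved by over 1.5 times are given with their genes.

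**Figure D1:**
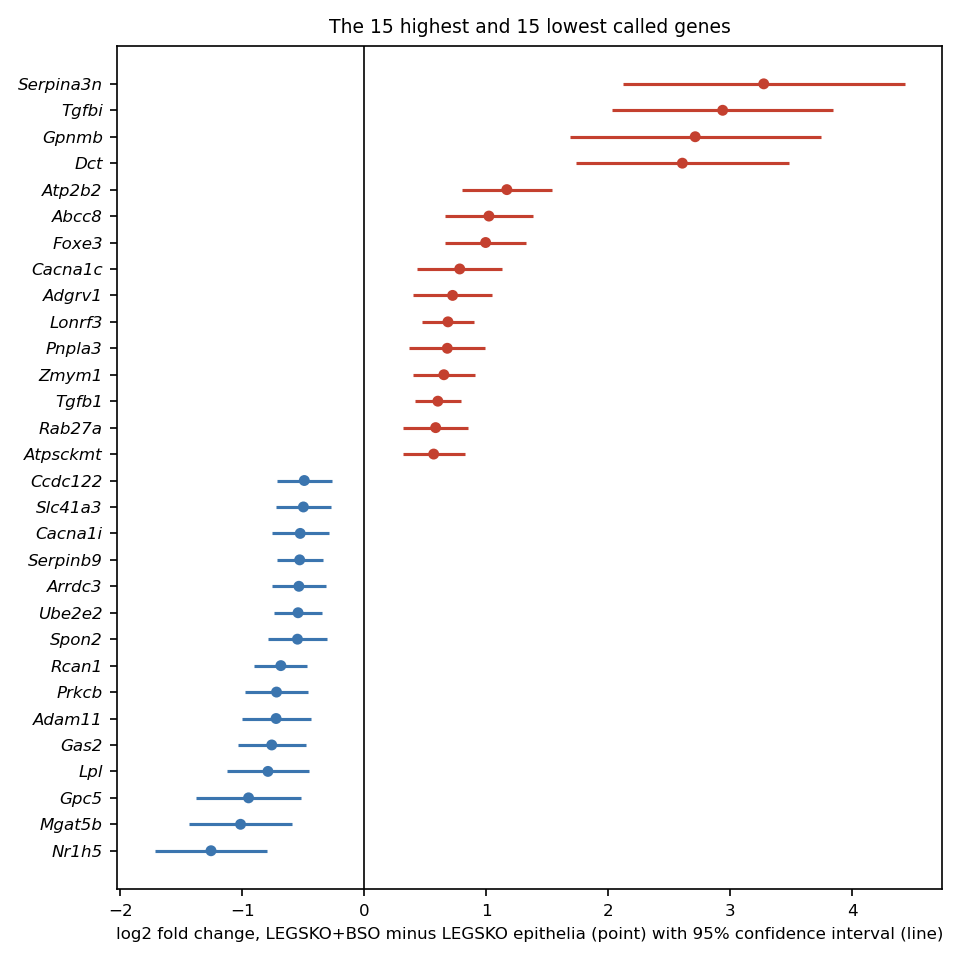
Log2 fold change of LEGSKO+BSO over LEGSKO epithelia for the 15 highest and 15 lowest called genes among those whose groups do not overlap, so without A2m (points, with 95% confidence intervals as lines). Serpina3n, Tgfbi, Gpnmb and Dct lie between 2.61 and 3.28 with wide intervals, and the other genes shown between -1.26 and 1.17.

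Secreted protease inhibitors held the gene with the highest fold. Serpina3n, an acute-phase inhibitor of serine proteases (Entrez 20716, GRCm38 chromosome 12: 104406646 to 104414334), had 5.20, 5.39, 10.6 and 7.44 CPM in LEGSKO libraries 1 to 4 and 31.9, 15.7, 66 and 163 CPM in LEGSKO+BSO libraries. Every LEGSKO+BSO library was above every LEGSKO library, but library 4 was far above the others and library 2 just above the LEGSKO range. The gene rose 9.69-fold (log2 3.28 ± 0.54 SE, edgeR adjusted p = 0.0208). Without LEGSKO+BSO epithelia 4 the rise was 5.27-fold. A2m, which encodes the broad protease inhibitor alpha-2-macroglobulin, was also called, although its groups overlapped. It was chosen after its values were seen, since the naming rule asks for groups that do not overlap. Its CPM was 2.67, 4.70, 3.37 and 2.92 in LEGSKO libraries and 4.62, 11.0, 15.7 and 33.6 in LEGSKO+BSO, with library 1 inside the LEGSKO range and library 4 highest. The fitted rise was 4.79-fold (log2 2.26 ± 0.47 SE, edgeR adjusted p = 0.0428), and 3.05-fold without LEGSKO+BSO epithelia 4. Serpina3g, another serpin, had 0.601, 0.453, 2.37 and 6.00 CPM in LEGSKO+BSO against 0.184, 0.196, 0.475 and 0.320 CPM and did not pass (log2 3.00 ± 0.82 SE, edgeR adjusted p = 0.0918). Serpina3n and Serpina3g lie in a family of close copies, so the assignment of reads between them is uncertain.

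Other members of the inflammatory list did not pass in either tool. The list held 28 tested genes for acute-phase proteins, cytokines and their signalling, and Serpina3n was the only call (1 higher, 0 lower) in edgeR and in DESeq2. Its median log2 difference was 0.20, with 22 members above 0, beside 0.0012 over all genes tested, of which 7583 were above 0. The transcription factor gene Cebpb had log2 1.48 ± 0.50 SE (edgeR adjusted p = 0.141) and the receptor gene Osmr 0.34 ± 0.14 SE (adjusted p = 0.204). The cytokine gene Il1b lay the other way, with 3.04, 3.48, 4.99 and 3.96 CPM in LEGSKO and 1.54, 2.21, 1.62 and 2.89 CPM in LEGSKO+BSO (log2 -0.89 ± 0.25 SE, adjusted p = 0.0999). Serpinb9, an intracellular inhibitor of granzyme B, fell 1.44-fold, from 24.4 ± 1.33 to 17.0 ± 1.03 CPM (SD, n = 4; edgeR adjusted p = 0.0208).

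Among matrix and TGF-beta genes, Tgfbi and Tgfb1 rose. Tgfbi (Entrez 21810, GRCm38 chromosome 13: 56609586 to 56639359) encodes a secreted matrix protein named for its induction by TGF-beta. It had 0.83, 0.931, 1.23 and 0.961 CPM in the LEGSKO libraries and 8.11, 3.07, 5.86 and 13.2 CPM in the LEGSKO+BSO libraries. The LEGSKO libraries were close together and all LEGSKO+BSO libraries lay above them, with library 4 highest and library 2 lowest. The rise was 7.67-fold (log2 2.94 ± 0.43 SE, edgeR adjusted p = 0.0143). Tgfb1 (Entrez 21803, GRCm38 chromosome 7: 25687002 to 25705077), the ligand gene, had 39.3, 35.1, 41.5 and 37.6 CPM in LEGSKO and 57.5, 55.8, 61.1 and 58.9 CPM in LEGSKO+BSO. Both groups were tight and did not overlap, and the rise was 1.52-fold (log2 0.60 ± 0.09 SE, edgeR adjusted p = 0.0143). WT epithelia, at 48.6, 58.4, 51.3 and 66.3 CPM, spanned the LEGSKO+BSO values.

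Of 56 tested genes of the TGF-beta, epithelial-mesenchymal transition and matrix list, these were the 2 calls in edgeR, with a median of 0.07 and 37 above 0. DESeq2 called 4 higher, adding Lama1 and Timp1, and Smad2 lower. The ligand gene Tgfb2, which the lens expresses strongly, had log2 0.04 ± 0.08 SE, and Acta2, the smooth muscle actin of the myofibroblast state, had -0.04 ± 0.14 SE (interval -0.35 to 0.27). Fibronectin (Fn1) had 25.4, 6.74, 13.9 and 9.86 CPM in LEGSKO+BSO against 8.06, 6.56, 8.69 and 8.36 CPM, highest in libraries 1 and 3, and did not pass (log2 0.82 ± 0.29 SE, edgeR adjusted p = 0.160). Outside the list, and chosen after its values were seen, Pmepa1, a membrane protein gene that TGF-beta induces and that dampens its signal, rose 1.41-fold, from 47.4 ± 4.88 to 67 ± 7.05 CPM (SD, n = 4; edgeR adjusted p = 0.0218). Spon2, a secreted spondin, fell 1.46-fold, from 249.3 ± 11.9 to 170.5 ± 22.9 CPM (adjusted p = 0.0428). Gpc5, a cell-surface heparan sulfate proteoglycan, fell 1.93-fold, from 5.75 ± 1.30 to 2.98 ± 0.226 CPM (adjusted p = 0.0467). Adam11, a membrane protein of the disintegrin family without protease activity, fell 1.65-fold, from 46.4 ± 8.14 to 28.2 ± 3.55 CPM (adjusted p = 0.0291).

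**Figure D2:**
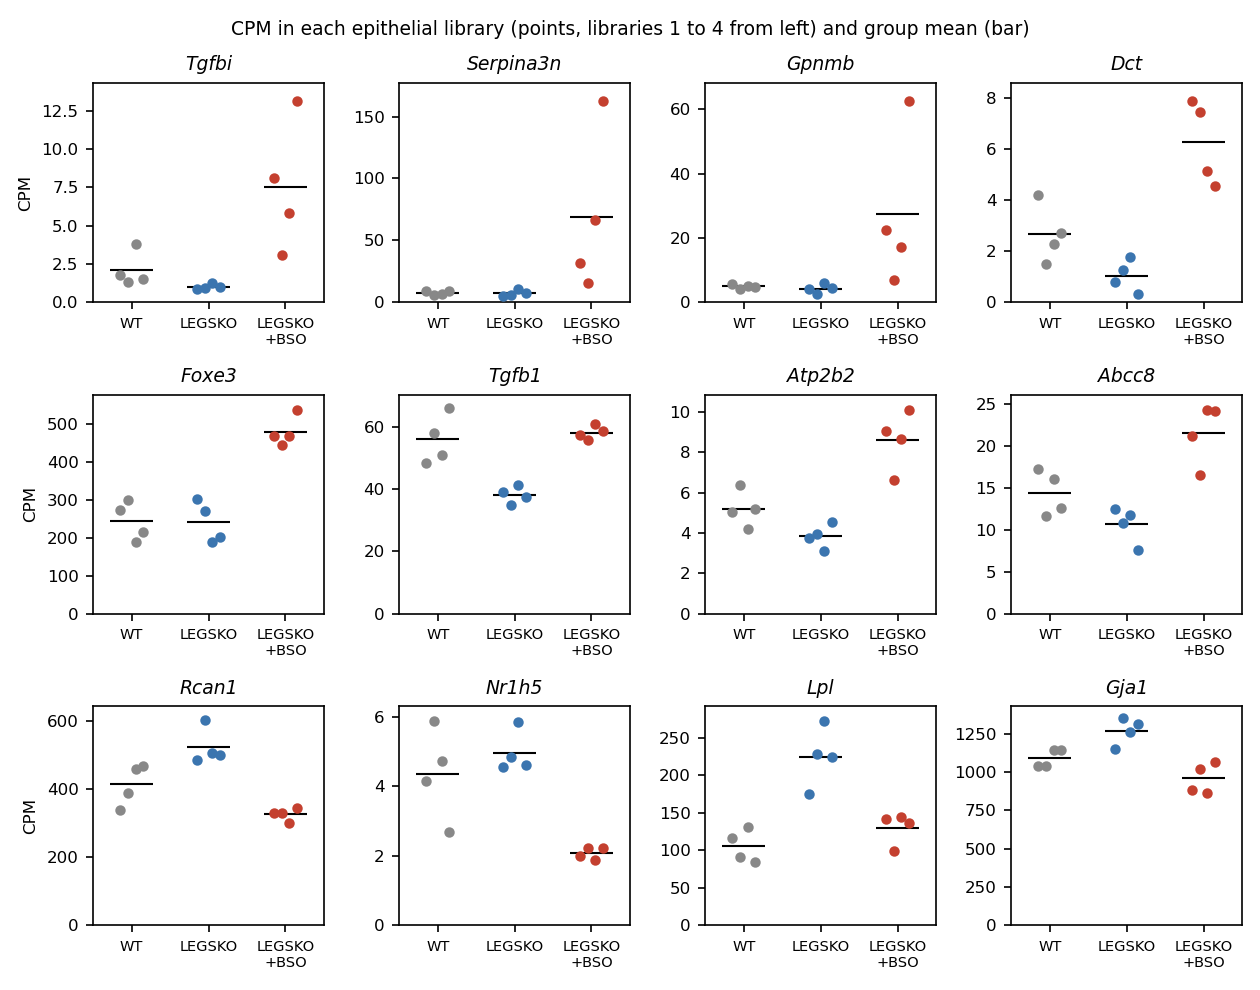
CPM of 12 called genes in each epithelial library (points, libraries 1 to 4 from left to right) with the group mean (bar), each panel on its own linear axis from 0. The 4 LEGSKO+BSO libraries of Serpina3n spread from 15.7 to 163 CPM, whereas those of Tgfb1 lie between 55.8 and 61.1 CPM.

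Pigment cell genes formed the next group with high folds. Dct, dopachrome tautomerase of the melanin pathway (Entrez 13190, GRCm38 chromosome 14: 118012790 to 118052246), had 0.783, 1.27, 1.76 and 0.320 CPM in LEGSKO and 7.88, 7.44, 5.15 and 4.56 CPM in LEGSKO+BSO epithelia. The groups did not overlap, and unlike Serpina3n the highest LEGSKO+BSO values were in libraries 1 and 2. The rise was 6.10-fold (log2 2.61 ± 0.41 SE, edgeR adjusted p = 0.0165). Gpnmb, a transmembrane glycoprotein found in melanosomes and in macrophages (Entrez 93695, GRCm38 chromosome 6: 49036518 to 49058182), had 4.05, 2.65, 5.79 and 4.28 CPM in LEGSKO and 22.4, 6.94, 17.2 and 62.6 CPM in LEGSKO+BSO. As for Serpina3n, library 4 was highest and library 2 lay just above the LEGSKO range. The rise was 6.56-fold (log2 2.71 ± 0.48 SE, edgeR adjusted p = 0.0248), and 3.71-fold without LEGSKO+BSO epithelia 4. Rab27a, a small GTPase that carries melanosomes and secretory granules, rose 1.5-fold, with 5.75, 6.61, 6.41 and 6.44 CPM against 8.63, 8.15, 9.54 and 11.4 CPM (edgeR adjusted p = 0.0469). Kit, the receptor tyrosine kinase for stem cell factor, fell 1.39-fold, from 38.6, 45.6, 53.9 and 48.4 CPM to 32.6, 39.1, 29.4 and 33.4 CPM, with the highest LEGSKO+BSO library just above the lowest LEGSKO library (edgeR adjusted p = 0.0496).

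No other pigment gene passed in edgeR. Of 25 tested members of the pigment cell and melanin list, edgeR called 3 higher and 1 lower, with a median of 0.22 and 19 above 0. DESeq2 called 4 higher and 1 lower, the added one being Ednrb, the endothelin receptor of pigment cell precursors (edgeR log2 0.70 ± 0.17 SE, edgeR adjusted p = 0.0724). Tyrosinase (Tyr), the first enzyme of melanin synthesis, had 15.1, 17.9, 18 and 17.8 CPM in LEGSKO and 19.2, 18.9, 19.7 and 21.4 CPM in LEGSKO+BSO (log2 0.21 ± 0.08 SE, edgeR adjusted p = 0.204). Its groups did not overlap, but the difference was small beside that of Dct. Tyrp1 had log2 0.53 ± 0.22 SE (adjusted p = 0.209) and the melanosome matrix gene Pmel 0.46 ± 0.29 SE (adjusted p = 0.396). Mitf, the master regulator of pigment cells, had 0.16 ± 0.24 SE. Mlana, which marks melanocytes and pigmented epithelia, was at 0 in all 4 LEGSKO libraries and at most 0.450 CPM in LEGSKO+BSO. The summed level of the list was 1599.9 to 1853 CPM in LEGSKO and 1762 to 1969 CPM in LEGSKO+BSO. Tyr, Tyrp1, Dct, Pmel and Mlana were each at most 21.4 CPM in these libraries. Most of the sum therefore came from other members, and it does not measure pigment cell content.

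The start regions of these pigment genes are shown because Dct and Gpnmb both rose. Each runs from 250 bases before to 50 bases after the RefSeq start, 5′ to 3′ on the gene's strand (GRCm38.p6). Dct lies on the minus strand at chr14:118052197-118052496 and Gpnmb on the plus strand at chr6:49036268-49036567. Capitals mark matches to the M-box TCATGTG, an E-box known for binding of MITF, searched on both strands.
Dct: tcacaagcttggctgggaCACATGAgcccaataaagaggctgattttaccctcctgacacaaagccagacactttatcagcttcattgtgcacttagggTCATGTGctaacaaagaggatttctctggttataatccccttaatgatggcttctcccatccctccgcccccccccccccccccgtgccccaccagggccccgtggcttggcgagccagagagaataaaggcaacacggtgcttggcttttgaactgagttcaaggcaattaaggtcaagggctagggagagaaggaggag
Gpnmb: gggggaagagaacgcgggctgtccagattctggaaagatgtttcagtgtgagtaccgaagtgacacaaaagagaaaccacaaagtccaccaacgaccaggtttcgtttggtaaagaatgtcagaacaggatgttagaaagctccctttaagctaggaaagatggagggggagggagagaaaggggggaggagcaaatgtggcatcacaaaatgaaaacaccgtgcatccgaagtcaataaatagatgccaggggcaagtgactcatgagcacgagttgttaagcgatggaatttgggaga
Dct held 2 matches, starting at -232 (as the reverse complement) and -151 from the start, and Gpnmb held none in this window. Of 11759 tested genes with a window, 2.74% had an M-box match. Among called genes with a window it was 3 of 36 higher and 2 of 48 lower ones. Other motifs were searched too, each given over all genes, then for the higher and the lower called ones. The E-box CACGTG had 11.2%, 5 and 9, and the antioxidant response element core 16.8%, 6 and 5. The STAT palindrome had 8.28%, 4 and 4. The cyclic AMP response element had 3.35%, 2 and 2, and the SMAD palindrome 0.298%, 0 and 0. These matches describe the letters only.

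Genes of lens epithelial identity moved in both directions. Foxe3, a forkhead transcription factor that keeps the lens epithelium in its proliferating, undifferentiated state (Entrez 30923, GRCm38 chromosome 4: 114924443 to 114926067), had 302, 270.4, 188 and 202 CPM in LEGSKO and 468, 444, 469 and 538 CPM in LEGSKO+BSO. All LEGSKO+BSO libraries were above all LEGSKO libraries, which themselves spread widely. The rise was 1.99-fold (log2 1.00 ± 0.15 SE, edgeR adjusted p = 0.0165). Gja1, the epithelial gap junction protein connexin 43 (Entrez 14609, GRCm38 chromosome 10: 56377300 to 56390419), fell 1.32-fold: its CPM was 1153, 1354, 1262 and 1315 in LEGSKO libraries and 884, 1024, 864 and 1069 in LEGSKO+BSO (log2 -0.40 ± 0.08 SE, edgeR adjusted p = 0.0428). For both genes the groups did not overlap. Gja3, a connexin of lens fibers, had log2 0.06 ± 0.08 SE.

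Foxe3 and Gja1 were edgeR's calls among 31 tested lens epithelial genes (1 higher, 1 lower, median 0.05), and DESeq2 also called Fgfr3 and Wnt5b higher and Mab21l1 lower. Pax6 had log2 -0.02 ± 0.07 SE and Cdh1 -0.03 ± 0.10 SE. The growth factor receptor gene Pdgfra had 147, 219.7, 167 and 158 CPM against 210.4, 229.9, 229 and 269.6 CPM and did not pass (log2 -0.44 ± 0.18 SE, edgeR adjusted p = 0.206). Among 38 tested genes of lens fibers, crystallins included, 17 were above 0 and the median was -0.10. The alpha crystallin gene Cryaa had log2 -0.11 ± 0.21 SE (interval -0.56 to 0.34), and the fiber membrane water channel gene Mip 0.43 ± 0.25 SE. Of the cytolinkers, which tie intermediate filaments to adhesions, Dst rose 1.45-fold, from 459.6 ± 36.7 to 666 ± 66.5 CPM (edgeR adjusted p = 0.0428), and Plec 1.36-fold, from 435 ± 32.5 to 593 ± 44.2 CPM (SD, n = 4; adjusted p = 0.0428). Both were chosen after their values were seen. Adgrv1, a very large adhesion receptor, rose 1.65-fold, from 16.2 ± 2.70 to 26.7 ± 3.52 CPM (adjusted p = 0.0428). Gas2, a regulator of actin filaments, fell 1.69-fold, from 11.7 ± 1.36 to 6.90 ± 0.876 CPM (adjusted p = 0.0214).

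Calcium and membrane excitability genes were a further group. Atp2b2, a plasma membrane pump that exports calcium (Entrez 11941, GRCm38 chromosome 6: 113743831 to 114042613), had 3.77, 3.97, 3.09 and 4.52 CPM in LEGSKO and 9.08, 6.64, 8.68 and 10.1 CPM in LEGSKO+BSO, and rose 2.25-fold (log2 1.17 ± 0.17 SE, edgeR adjusted p = 0.0143). Cacna1c, the pore subunit of an L-type calcium channel (Entrez 12288, GRCm38 chromosome 6: 118587240 to 119197384), had 21.5, 18.8, 17.8 and 19 CPM in LEGSKO and 35.3, 32.4, 32.1 and 32.8 CPM in LEGSKO+BSO, and rose 1.72-fold (log2 0.78 ± 0.16 SE, adjusted p = 0.0428). The 4 LEGSKO+BSO values of Cacna1c were nearly equal and above every LEGSKO value. Abcc8, the sulfonylurea receptor subunit of ATP-sensitive potassium channels (Entrez 20927, GRCm38 chromosome 7: 46104523 to 46180039), had 12.5, 10.8, 11.8 and 7.56 CPM in LEGSKO and 21.2, 16.6, 24.3 and 24.2 CPM in LEGSKO+BSO. Its groups did not overlap, and it rose 2.03-fold (log2 1.02 ± 0.17 SE, edgeR adjusted p = 0.0208). Cacna1i, a T-type calcium channel subunit, went the other way: it fell 1.44-fold, from 12.6, 15.3, 11.8 and 14.8 CPM to 9.23, 10.1, 8.38 and 10.1 CPM (log2 -0.53 ± 0.11 SE, edgeR adjusted p = 0.0428).

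Of 45 tested calcium handling genes, Atp2b2 and Cacna1c were called by edgeR, both higher. The list's median was 0.08 with 29 above 0, and DESeq2 called 3 higher and 1 lower, adding Cacna1a and Cacna1h. Atp2b1, another plasma membrane calcium pump, had log2 0.08 ± 0.10 SE, and the L-type subunit Cacna1d had -0.02 ± 0.13 SE, and neither passed. Of 41 tested ion channels, pumps and water channels, Gja1 was the only call in edgeR, and DESeq2 also called Piezo2 and Slc4a4 higher. The median was 0.13 with 28 above 0.

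Further lower genes are named singly, from no list. Rcan1, an inhibitor of the calcium-dependent phosphatase calcineurin (Entrez 54720, GRCm38 chromosome 16: 92391951 to 92466169), had 486, 604, 505 and 499 CPM in LEGSKO and 329.7, 329, 300.1 and 344 CPM in LEGSKO+BSO. The groups lay far apart, and the fall was 1.61-fold (log2 -0.68 ± 0.10 SE, edgeR adjusted p = 0.0143). Prkcb, protein kinase C beta, fell 1.65-fold, from 54.1, 56.2, 57.5 and 44.3 CPM to 35.5, 32.3, 32.8 and 28.3 CPM (log2 -0.72 ± 0.12 SE, edgeR adjusted p = 0.0208). Prkar2b, a regulatory subunit of protein kinase A, fell 1.36-fold (adjusted p = 0.0428), and Pkia, an inhibitor peptide of the same kinase, 1.40-fold (adjusted p = 0.0483). The last pair, and Pik3r1 (1.26-fold lower, adjusted p = 0.0423) and Pik3r3 (1.30-fold lower, adjusted p = 0.0428), regulatory subunits of phosphoinositide 3-kinase, were chosen after their values were seen.

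A few lipid genes were called, in both directions. Lpl, lipoprotein lipase (Entrez 16956, GRCm38 chromosome 8: 68880555 to 68906932), had 175, 229, 272 and 224 CPM in LEGSKO and 141, 99.1, 144 and 136 CPM in LEGSKO+BSO. Every LEGSKO+BSO library lay below every LEGSKO library, and the fall was 1.73-fold (log2 -0.79 ± 0.16 SE, edgeR adjusted p = 0.0364). Cpt1a, which loads long-chain fatty acids into mitochondria, rose 1.25-fold, with 35.9, 36.4, 35.1 and 35.4 CPM against 42.8, 46.4, 46.0 and 43.8 CPM (edgeR adjusted p = 0.0345). Pnpla3, a lipid droplet lipase, had 36.5, 26.8, 35.1 and 19 CPM in LEGSKO, where library 4 was lowest, and 48.3, 45.2, 50.9 and 43.6 CPM in LEGSKO+BSO, a rise of 1.60-fold (log2 0.68 ± 0.15 SE, edgeR adjusted p = 0.0483). Soat1, which esterifies cholesterol, rose 1.34-fold, from 31.9, 31.9, 31.7 and 29.8 CPM to 42.8, 38.9, 40.9 and 45.4 CPM (edgeR adjusted p = 0.0339). Nr1h5, a nuclear receptor related to the bile acid receptor (Entrez 381463, GRCm38 chromosome 3: 102939658 to 102964291), had the lowest fold of all called genes. Its CPM was 4.56, 4.85, 5.84 and 4.60 in LEGSKO libraries and 1.99, 2.21, 1.87 and 2.21 in LEGSKO+BSO, a fall of 2.39-fold (log2 -1.26 ± 0.22 SE, edgeR adjusted p = 0.0214).

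Lpl and Cpt1a were the calls in edgeR and in DESeq2 among 42 tested fatty acid genes (1 higher, 1 lower, median -0.02), and Soat1 was edgeR's only one among 40 genes of cholesterol synthesis and uptake (median 0.06), where DESeq2 also called Cyp51 and Lbr higher. The fatty acid synthase gene Fasn had log2 -0.14 ± 0.11 SE.

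Several metabolic and stress lists held a single edgeR call. Hif1a, the oxygen-regulated transcription factor subunit, fell 1.27-fold, from 1506, 1695, 1536 and 1593 CPM to 1274, 1225, 1216 and 1279 CPM (log2 -0.34 ± 0.07 SE, edgeR adjusted p = 0.0339). In edgeR it was the only call among 32 tested hypoxia and glycolysis genes (median -0.07, 10 above 0), and DESeq2 also called P4ha1 higher and Aldoc lower. Its target Vegfa had log2 0.18 ± 0.12 SE and Slc2a1 -0.10 ± 0.09 SE. Exons of Hif1a overlap those of Gm15283 on the opposite and Gm49321 on the same strand, and without a stated strand setting their reads cannot be told apart. Ifit2, an interferon-induced gene, fell 1.32-fold, from 40.9 ± 2.36 to 31.0 ± 3.09 CPM (SD, n = 4; adjusted p = 0.0428). In edgeR and in DESeq2 it was the only call of 34 tested interferon and complement genes (median 0.16, 24 above 0). Gstm7, a mu-class glutathione S-transferase, fell 1.31-fold, from 46.3, 45.0, 44.0 and 44.6 CPM to 33.6, 36.6, 33.8 and 33.7 CPM (edgeR adjusted p = 0.0483), edgeR's only call of 21 tested S-transferases, and DESeq2 also called Gsto1 higher. Close copies make the assignment of reads to Gstm7 uncertain.

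Genes of glutathione supply did not pass the edgeR threshold. Of 26 tested genes of glutathione synthesis and recycling, 0 were called, 2 higher and 1 lower genes had an unadjusted p below 0.05, and DESeq2 called Gclc alone. The median was -0.04 with 10 above 0. Gclm, the modifier subunit of the ligase, had 63.2, 38.6, 35.8 and 44.4 CPM in LEGSKO and 58.3, 66, 54.1 and 37.1 CPM in LEGSKO+BSO (log2 0.24 ± 0.18 SE, interval -0.14 to 0.61). Gss, glutathione synthetase, had 181, 133, 110.1 and 152 CPM and 128, 204, 135 and 101 CPM (log2 -0.02 ± 0.18 SE, interval -0.41 to 0.37). Both genes varied widely within each group and the groups overlapped. The reductase gene Gsr had log2 0.21 ± 0.15 SE and the lipid peroxidase gene Gpx4 0.08 ± 0.12 SE. Chac1, which degrades glutathione, had 0.276, 0.294, 0.190 and 0.200 CPM and 0.488, 0.402, 0.505 and 0.765 CPM, with few reads in any library (log2 1.18 ± 0.46 SE, edgeR adjusted p = 0.184).

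The antioxidant lists held no edgeR call either. Of 30 tested targets of NRF2, the oxidant-responsive transcription factor, edgeR called 0 (3 higher and 3 lower at an unadjusted p below 0.05, median 0.09), and DESeq2 called Gclc higher and Fth1 lower. Nqo1 had log2 -0.12 ± 0.12 SE and the cystine carrier gene Slc7a11 0.10 ± 0.10 SE. Hmox1, heme oxygenase, had 10.1, 8.92, 9.31 and 10.6 CPM in LEGSKO and 32.3, 13.4, 15.6 and 10.7 CPM in LEGSKO+BSO, and all LEGSKO+BSO values were above all LEGSKO values. Library 1 was far above the other 3, the log2 difference was 0.89 ± 0.29 SE (edgeR adjusted p = 0.132), and without that library it was 0.44. Of 24 tested thioredoxin, peroxiredoxin and antioxidant enzyme genes, 4 were above 0 and the median was -0.14, with 0 called by edgeR, 6 lower at an unadjusted p below 0.05 and Prdx5 called lower by DESeq2. Prdx5, a mitochondrial and peroxisomal peroxiredoxin, had 268, 265, 254 and 285 CPM against 207, 248, 226 and 186 CPM (log2 -0.30 ± 0.09 SE, edgeR adjusted p = 0.115). Prdx3 had -0.26 ± 0.09 SE and Prdx6 -0.20 ± 0.07 SE. Of 30 tested genes of aldehyde and carbonyl detoxification, edgeR called 0 (1 higher and 6 lower at an unadjusted p below 0.05, median -0.12) and DESeq2 called Akr1a1 and Aldh3a2 lower. Aldh3a2 had log2 -0.20 ± 0.06 SE (edgeR adjusted p = 0.0996).

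General stress programmes were likewise without an edgeR call. Among 47 tested genes of the unfolded protein and integrated stress response, 0 were called, 7 higher and 2 lower had an unadjusted p below 0.05, the median was 0.09, and DESeq2 called Creld2 and Pdia4 higher. The chaperone gene Hspa5 had log2 0.14 ± 0.08 SE and Ddit3, the factor known as CHOP, 0.09 ± 0.13 SE. Heat shock genes (36 tested) had 0 calls, 2 higher and 3 lower at an unadjusted p below 0.05, and a median of -0.02. DESeq2 called Hsph1 higher and Hspa9 lower. Genes of p53 and cell death (37 tested) had 0 calls in edgeR and in DESeq2, 3 higher and 3 lower at an unadjusted p below 0.05, and Cdkn1a, the main p53 target of growth arrest, had log2 -0.10 ± 0.24 SE. Cell cycle genes (49 tested) had 0 calls, 4 higher and 1 lower at an unadjusted p below 0.05, with Ccnd3 lower in DESeq2 and the proliferation marker Mki67 at log2 0.19 ± 0.14 SE. Metallothioneins and iron handling genes (26 tested) had 0 calls, 3 higher and 5 lower at an unadjusted p below 0.05, with Steap3 higher and Fth1, Hmox2 and Pcbp1 lower in DESeq2. Mt1 had log2 0.54 ± 0.24 SE. Immediate early genes (20 tested) had 0 calls in either tool, 5 higher and 1 lower at an unadjusted p below 0.05, and Egr1 had 0.58 ± 0.21 SE. Amino acid transporters (28 tested) had 0 calls, 3 higher and 1 lower at an unadjusted p below 0.05, and DESeq2 called Slc1a4 higher.

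**Figure D3:**
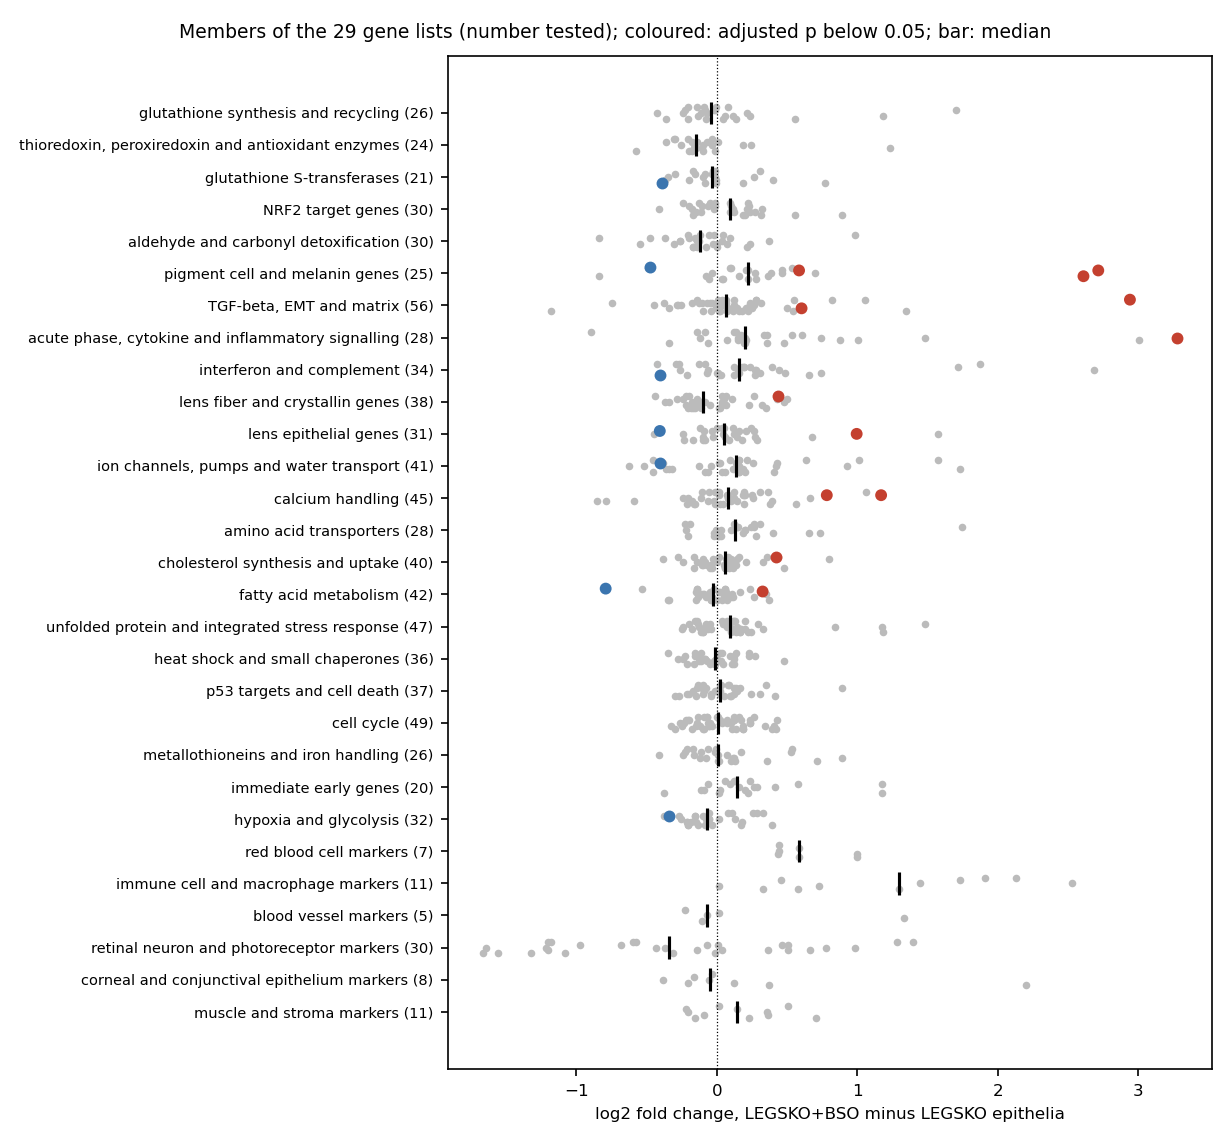
Log2 fold change of LEGSKO+BSO over LEGSKO epithelia for every tested member of the 29 gene lists (points), with the number tested in brackets, the list median as a bar, and genes with an adjusted p below 0.05 in red (higher) or blue (lower). List medians lie near 0 except among markers of other cells, such as 1.30 for immune cell and -0.34 for retinal markers. The immune median covers only markers that passed the filter on low counts, some through groups other than LEGSKO.

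Markers of other cell types were measured beside these results. All 11 tested immune cell and macrophage markers, of 25 listed, had a log2 difference above 0, with a median of 1.30. Of these, 0 passed in edgeR or DESeq2 and 4 had an unadjusted p below 0.05. The filter on low counts used WT, LEGSKO and LEGSKO+BSO epithelia together, so a marker low in LEGSKO could be tested through the other groups. The marker H2-Aa had 0.0460 to 0.343 CPM in LEGSKO and 0.252 to 2.11 CPM in LEGSKO+BSO. The shared direction is thus partly set by the filter. The sum of the list's 25 markers was 6.89 to 12.2 CPM in LEGSKO and 8.63 to 38.9 CPM in LEGSKO+BSO. Within LEGSKO+BSO it was highest in library 2 and lowest in library 3. Serpina3n, Gpnmb and Tgfbi were highest in library 4 and lowest in library 2. The leukocyte marker Ptprc ranged from 0 to 0.0950 CPM in LEGSKO and from 0 to 1.01 CPM in LEGSKO+BSO, and Csf1r, the macrophage receptor, from 0.142 to 1.37 and from 0.202 to 4.33 CPM. Lysozyme (Lyz2), also of the list, had 0.783, 0.931, 0.522 and 0.840 CPM in LEGSKO and 1.95, 4.33, 0.353 and 4.87 CPM in LEGSKO+BSO. Its highest value was in LEGSKO+BSO library 4 and its lowest in library 3. The part of immune cells in the rise of Gpnmb and Serpina3n was not tested.

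Other marker lists held 0 edgeR calls. Retinal and photoreceptor markers (30 tested, 1 higher and 0 lower at an unadjusted p below 0.05) summed to 296 to 614 CPM in LEGSKO and 287 to 528 CPM in LEGSKO+BSO. Red blood cell markers (7 tested, 1 higher at an unadjusted p below 0.05) summed to 93.9 to 122 and 129 to 170.4 CPM. Blood vessel markers (5 tested, 1 higher at an unadjusted p below 0.05) summed to 320 to 372 and 338 to 378 CPM. Muscle and stroma markers (11 tested, 1 higher at an unadjusted p below 0.05) summed to 1035 to 1129 and 1170 to 1297 CPM. Corneal and conjunctival markers (8 tested, none at an unadjusted p below 0.05) summed to 2342 to 3262 and 3045 to 4140 CPM, mostly Aldh3a1. DESeq2 called 0 in the last 3 of these lists and in the retinal list.

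The genes not yet described were of mixed function. Among the higher ones, Lonrf3, a RING finger protein, rose 1.61-fold, from 39.2 ± 4.32 to 63.2 ± 6.73 CPM (SD, n = 4; edgeR adjusted p = 0.0143), the zinc finger gene Zmym1 1.57-fold, from 20.4 ± 1.00 to 32.0 ± 5.70 CPM (adjusted p = 0.0272), and Atpsckmt, a lysine methyltransferase of the ATP synthase, 1.48-fold, from 7.23 ± 0.460 to 10.7 ± 0.707 CPM (adjusted p = 0.0428). Among the lower ones, Mgat5b, a glycan-branching enzyme (Entrez 268510, GRCm38 chromosome 11: 116918853 to 116986944), had 6.63, 8.13, 5.18 and 6.76 CPM in LEGSKO and 3.72, 3.97, 3.28 and 2.32 CPM in LEGSKO+BSO and fell 2.02-fold (log2 -1.01 ± 0.20 SE, edgeR adjusted p = 0.0356). Ube2e2, a ubiquitin-conjugating enzyme, fell 1.46-fold, from 30.4 ± 1.94 to 20.9 ± 2.28 CPM (adjusted p = 0.0208). Arrdc3, an arrestin-domain adaptor, fell 1.45-fold (adjusted p = 0.0347), the magnesium carrier gene Slc41a3 1.41-fold (adjusted p = 0.0443), and Ccdc122, whose exons overlap those of Lacc1 on the other strand, 1.41-fold (adjusted p = 0.0483). The smallest adjusted p of the comparison was shared by 8 genes that include Thra, the thyroid hormone receptor alpha, which fell 1.36-fold from 97.2 ± 2.60 to 71.3 ± 5.12 CPM (SD, n = 4; edgeR adjusted p = 0.0143). Thra was chosen after its values were seen.

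WT epithelia, measured in the same fit, give the level with neither the LEGSKO allele nor BSO, so LEGSKO+BSO minus WT holds both. These comparisons share the LEGSKO or LEGSKO+BSO libraries with the one above, so their values are given side by side only. For Serpina3n, LEGSKO minus WT was -0.07 and LEGSKO+BSO minus WT 3.21 on the log2 scale, with 8.82, 6.02, 6.67 and 8.55 CPM in WT. For Foxe3 the values were -0.02 and 0.98, with 272, 298, 189.8 and 215 CPM in WT, all below the LEGSKO+BSO libraries. In Dct, WT had 4.21, 1.48, 2.28 and 2.69 CPM, overlapping LEGSKO and below LEGSKO+BSO, with log2 differences of -1.38 and 1.23 (edgeR adjusted p = 0.131 and 0.128). For Lpl, LEGSKO was above WT by 1.09 (edgeR adjusted p = 0.00530) and LEGSKO+BSO by 0.30 (adjusted p = 0.397), with 117, 91.0, 131 and 83.6 CPM in WT. For Tgfb1, LEGSKO was -0.55 (adjusted p = 0.00944) and LEGSKO+BSO 0.05 from WT. In Cacna1i both groups lay below WT, at -0.40 in LEGSKO and -0.92 in LEGSKO+BSO (adjusted p = 0.0990 and 0.00121). Over all genes, edgeR called 127 (0.842%) in LEGSKO against WT and 177 (1.17%) in LEGSKO+BSO against WT.

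**Figure D4:**
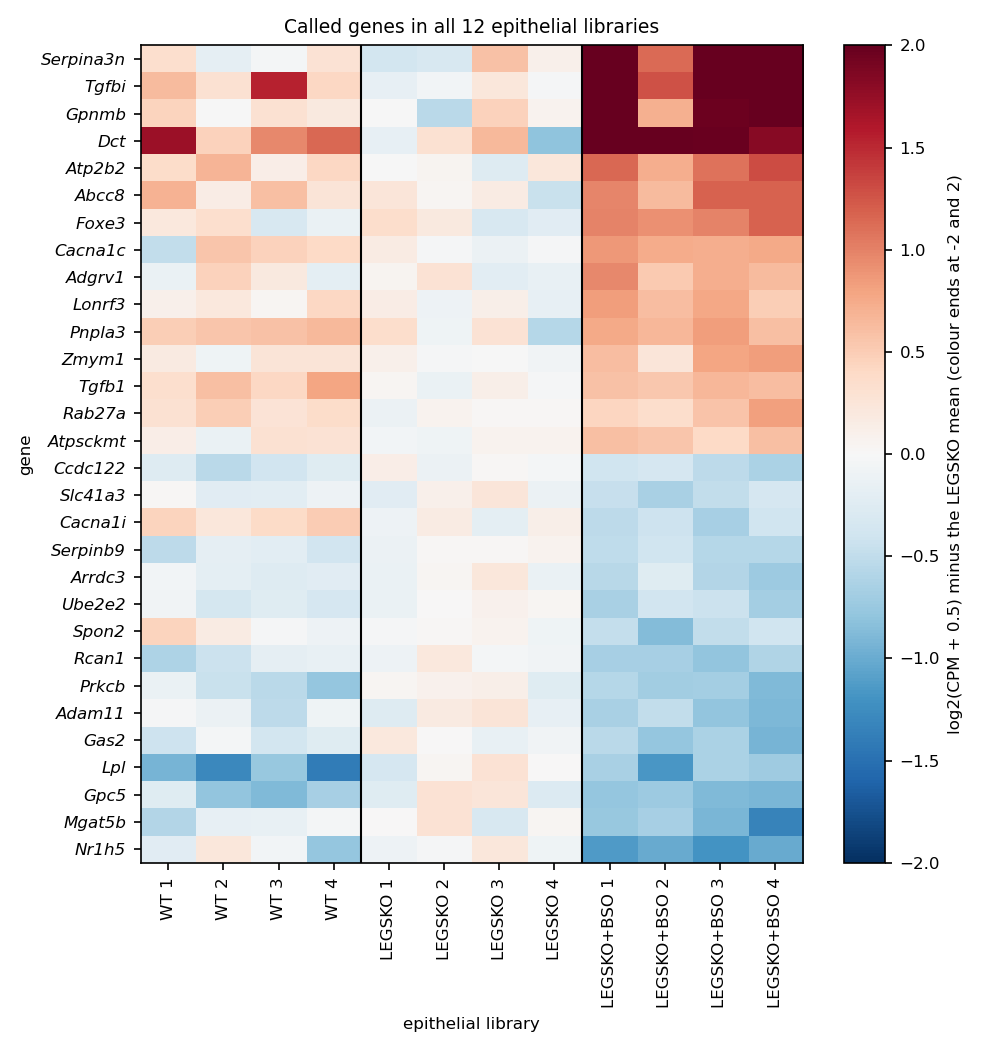
Log2(CPM + 0.5) minus the LEGSKO mean for the same 30 called genes, whose groups do not overlap (rows) in the 12 epithelial libraries (columns), with colours ending at -2 and 2. The LEGSKO+BSO columns are red in the upper 15 rows and blue in the lower 15, with Gpnmb palest in library 2, while WT columns are mixed, red for Tgfb1 and blue for Lpl.

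In cortical fibers the same contrast called 4 of 13436 genes (0.0298%), and library depth differed there between the groups (totals of 22.4 to 25.5 M without BSO, 39.0 to 46.6 M with it). Lyz2, which did not pass in epithelia, was 1 of these 4 (log2 2.74, edgeR adjusted p = 0.000383). It had 0.426, 0.559, 0.437 and 0.346 CPM in LEGSKO and 3.75, 2.75, 2.57 and 2.83 CPM in LEGSKO+BSO fibers. The immune marker H2-Aa had 0 CPM in all of these fiber libraries. Of the 109 genes called in epithelia, 103 were tested in fibers, where edgeR called 0 of them. An unadjusted p below 0.05 was seen for 16, of which 13 moved in the same direction. The share of all fiber genes below that threshold is not given here, so the 16 cannot be called many or few. Of the genes higher in epithelia, 31 of 46 were above 0 in fibers (median log2 0.09), and of the lower ones 42 of 57 were below 0 (median -0.08). Over the 13148 genes tested in both tissues 49.4% were above 0 in fibers. Foxe3 had 4.33, 3.40, 4.57 and 6.44 CPM in LEGSKO fibers and 5.11, 4.45, 4.78 and 13.9 CPM in LEGSKO+BSO fibers, with only library 4 apart (log2 0.59). That library was also highest for Gja1, at 15.6 CPM against 0.916 to 3.31 CPM in the other LEGSKO+BSO fiber libraries. For Spon2 it had 5.60 against 1.56 to 2.07 CPM. The part of epithelial cells in these values was not tested. Tgfbi had few reads in fibers, with 0.464, 0.301, 0.516 and 0.518 CPM and 0.0920, 0.393, 0.313 and 0.278 CPM. Prkcb had log2 -0.78 in fibers, with 3.64, 2.36, 4.01 and 2.38 CPM in LEGSKO and 1.93, 1.68, 1.81 and 1.81 CPM in LEGSKO+BSO, and the groups did not overlap there either.

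**Figure D5:**
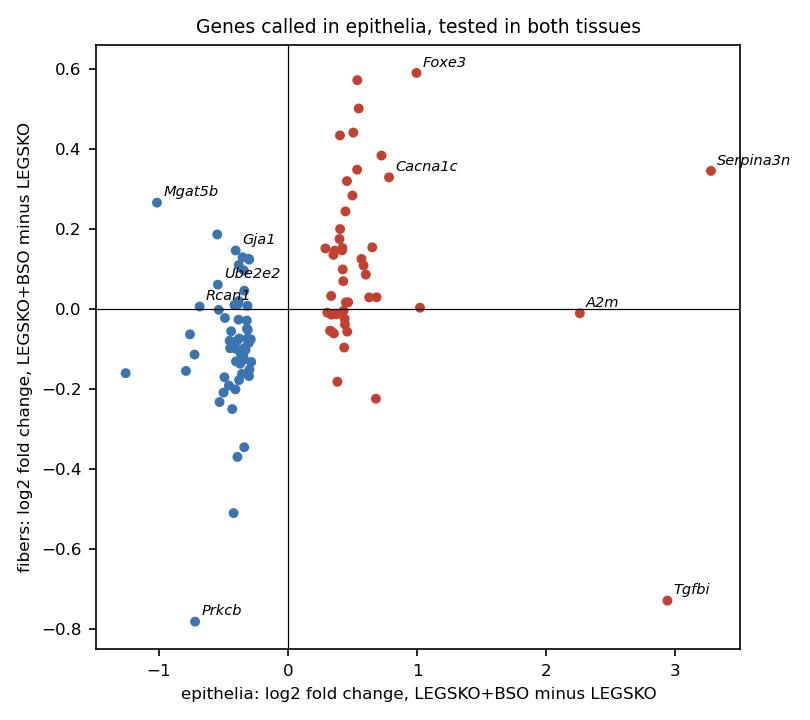
Log2 fold change of LEGSKO+BSO over LEGSKO in fibers (vertical axis) against epithelia (horizontal axis) for the 103 genes called in epithelia and tested in both tissues, red where higher and blue where lower in epithelia. Fiber differences lie within about 0.8 of 0, with Tgfbi and Prkcb lowest and Foxe3 highest, where only LEGSKO+BSO library 4 was apart.

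The response to BSO was tested for a difference between tissues as an interaction over 24 libraries. Of 15560 genes tested, 5 (0.0321%) passed, all with a lower log2 response in epithelia than in fibers, and 1645 had an unadjusted p below 0.05. Mgat5b fell in epithelia and had 16.4, 20.8, 17.9 and 17.3 CPM in LEGSKO and 22.8, 18.9, 23.3 and 22.2 CPM in LEGSKO+BSO fibers (interaction -1.31 ± 0.21 SE, edgeR adjusted p = 0.0117). Ctbp1, a transcriptional corepressor, had 69.9, 65.5, 67.2 and 64.6 CPM in LEGSKO and 61.6, 63.0, 59.8 and 56.2 CPM in LEGSKO+BSO epithelia, and 30.2, 28.6, 28.7 and 26.6 CPM and 34.8, 33.5, 36.5 and 36.8 CPM in fibers (interaction -0.48 ± 0.08 SE, adjusted p = 0.0117). Ube2e2 (-0.62 ± 0.11 SE, adjusted p = 0.0472) and the actin-binding protein gene Lasp1 (-0.51 ± 0.09 SE, adjusted p = 0.0472) were also called, and the fifth was Gm44505, a predicted gene left unnamed by the rule. Of the 109 genes called in epithelia, Mgat5b and Ube2e2 passed this test; Tgfbi did not (interaction 3.65 ± 0.75 SE, adjusted p = 0.0846). The count of 5 also rested on single libraries: it was 1 without LEGSKO epithelia 2, 2 without LEGSKO+BSO epithelia 1, 3 or 4, LEGSKO fibers 1, 3 or 4 or LEGSKO+BSO fibers 3 or 4, 3 without LEGSKO epithelia 3 or 4 or LEGSKO+BSO fibers 1, and 8 without LEGSKO+BSO fibers 2.

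Transcript length moved with the comparison. With genes split into 5 equal groups by transcript length, the median log2 difference ran from -0.09 in the shortest to 0.04 in the longest group. Called genes had a median length of 4.50 kb if higher and 3.20 kb if lower, against 3.40 kb over all genes, and a median GC content of 52.4%, 45.6% and 49.7%. With each library's trend with length removed, an alternative chosen after the data were seen, edgeR called 130 genes (55 higher, 75 lower), and 98 of the 109 were among them. In that fit the calls of Plec (edgeR adjusted p = 0.0709), Cacna1c (0.0582), Spon2 (0.0647), Gstm7 (0.0786) and Ccdc122 (0.0510) were lost. Among the genes named above, Kit lost its call with RLE scaling, Kit and Gstm7 with library sizes without lens genes, Atpsckmt, Ccdc122 and Rab27a with no filter on low counts, and Kit, Pnpla3, Slc41a3, A2m, Cacna1i, Gja1 and Rab27a with the 8 libraries fitted alone. With a block for replicate number, calls were lost for Kit, Plec, Pnpla3, Slc41a3, A2m, Adgrv1, Atpsckmt, Cacna1c, Cacna1i, Ccdc122, Cpt1a, Dst and Gja1. The block also removed the calls of Gpc5, Gstm7, Hif1a, Ifit2, Mgat5b, Pik3r1, Pik3r3, Pkia, Prkar2b, Rab27a, Soat1 and Spon2.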

How the data were processed

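RNA-seq of mouse lens was deposited as 1 table of whole-number read counts per Entrez gene, with 1 column per library and no normalization by the authors. Per the labels' protocols and the submitters' processing notes, the reads were compared with mm10, and bcl2fastq, CASAVA 1.8, TopHat and DESeq are named without role or order. For the counting tool, annotation, strand setting and library kit: not given in the sources used here. Entrez IDs were matched to mouse symbols (24334 of 24415), and the 81 unmatched IDs held 0.914% of counts. Gene positions are those of GRCm38, and start regions are RefSeq's.

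Counts were fitted with edgeR 4.0.16 (limma 3.58.1, R 4.3.3): filterByExpr (minimum count 10, minimum total 15), TMM scaling, quasi-likelihood F-test and Benjamini-Hochberg adjustment over all genes tested, at a threshold of 0.05. The 12 epithelial libraries (WT, LEGSKO, LEGSKO+BSO) shared 1 estimate of spread, and the interaction with tissue used 24 libraries. CPM are scaled by TMM, intervals are at 95%, and standard errors follow from the fold change and the F statistic. Total counts were 19.3 to 33.9 M in the 8 libraries compared. With counts simulated for 14922 genes, the fit recovered 52.2%, 74.6% and 95.5% of genes changed 1.5, 2 and 4-fold, and called 12 unchanged genes.

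Gclc, Gclm and Gss are named always. Among called genes with a mean log2 CPM of at least 0, groups that do not overlap and a plain symbol, the 15 highest and 15 lowest folds are named, with every called member of 29 gene lists, or the 2 smallest p-values where none was called, and the interaction's 5 highest and 5 lowest. The comparison and the lists were chosen with earlier results of these data known. Other list members are given as values, and a few genes that the rule or the lists hold are not reported here. Alternatives were RLE scaling, no filter, DESeq2 1.42.0, a replicate block, fewer libraries, other library sizes and, chosen after the data were seen, removal of a trend with length and of 2 libraries together.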

Additional observations from a re-analysis of the deposited data

Results flagged for a closer look

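In a group of 4 libraries, 1 was set apart where its gap to the nearest other, as a share of the group's range, exceeded Dixon's 95% critical value. This held for 5 of 150 groups of named genes, where chance gives about 1 in 20. Rcan1 had 603.9 CPM in LEGSKO epithelia 2, against 485.9 to 505.0 CPM in the other 3 libraries. Soat1 had 29.8 CPM in LEGSKO epithelia 4, against 31.7 to 31.9 CPM. Gstm7 had 36.6 CPM in LEGSKO+BSO epithelia 2, against 33.6 to 33.8 CPM. Glul, which encodes glutamine synthetase, had 396.9 CPM in the same library, against 208.2 to 227.4 CPM. The mucin gene Muc4 had 3.65 CPM in LEGSKO+BSO epithelia 4, against 0.151 to 0.302 CPM. For Rcan1, Soat1 and Gstm7, the library set apart lies within its own group's side of the comparison.

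Between tissues, the log2 response to BSO was lower in epithelia than in fibers by the interaction test (edgeR quasi-likelihood, Benjamini-Hochberg adjusted p below 0.05) for Ctbp1 (-0.48), Mgat5b (-1.31), Ube2e2 (-0.62) and Lasp1 (-0.51). Epithelia of Lasp1 had 106 CPM in LEGSKO and 88.6 CPM in LEGSKO+BSO, and fibers 15.9 and 18.6 CPM.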

How the results depend on the processing

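The 109 called genes were 110 with RLE scaling, 115 with no filter, 142 with the 8 libraries alone, 108 with library sizes without lens genes and 130 with the length trend removed. DESeq2 called 679 of 21845 genes fitted (321 higher, 358 lower), which included all 109. Leaving out 1 library gave 0 to 442 calls, and leaving out LEGSKO+BSO epithelia 2 and 4 together 24. The cause of these differences was not tested. The replicate block gave 46 genes (26 higher, 20 lower), 41 of them among the 109, and an adjusted p of 0.0145 for Gclc; same-numbered libraries correlated at -0.156, 0.272, 0.229 and 0.042, with 2 of 4 pairs matched best to their own number, so the numbers were not taken as pairs. The 5 interaction calls were 2 with RLE scaling, 1 with no filter, 61 with DESeq2, 2 with the replicate block and 1 to 8 with 1 library left out. Over 75 named genes, direction changed for Muc4, with a log2 difference of -0.18 without LEGSKO+BSO epithelia 4 and -0.18 to 3.01 over all single omissions. It also changed for Gss, at 0.12 without LEGSKO epithelia 1, 0.02 without LEGSKO epithelia 4, and 0.03, 0.0021 and 0.11 without LEGSKO+BSO epithelia 1, 3 and 4, over a range of -0.25 to 0.12. Of the values of named genes under alternatives, 829 kept direction and side of the threshold, 264 lost the call and 23 gained it. Depth limits genes such as Tgfbi, Dct and Serpina3g, which had few reads in LEGSKO.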
